A study of Triticum turgidum subsp. durum with 12 samples.

Results

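The genes described here are 78 high-confidence gene models of tetraploid durum wheat whose leaf transcript level was high in plants without phytochrome B and low in both WT plants and plants without phytochrome C. They were taken from 75769 high-confidence models, out of 190459 models in all, by their mean TPM (transcript abundance, a level corrected for transcript length and library size) in each genotype. A gene was kept if its phyB-null mean was at least 2 TPM and at least 4 times both the WT and the phyC-null mean. The WT and phyC-null means also had to lie within 2-fold of each other after adding 0.1 TPM to each, and the lowest phyB-null library had to exceed all 8 other libraries. The minimum level left 23935 models, the fold over WT 362, the fold over phyC-null 152, the closeness of WT and phyC-null 84 and the separation of the libraries 78. None of these was in the study's tables of selected phytochrome-regulated and splicing-related genes, which the rule excludes.

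The plants were Triticum turgidum subsp. durum variety Kronos (genomes AABB, with the Ppd-A1a allele, which lowers sensitivity to day length). The study compared 3 genotypes with 4 biological replicates each, 12 libraries in all: WT, which was the Kronos parent of the backcrosses, phyB-null and phyC-null. Each mutant line combined chemically induced null mutations in both homeologous PHYB genes or both PHYC genes, had been backcrossed to Kronos and then selfed, and may keep other induced mutations that WT lacks. All plants grew in short days of 8 h light and 16 h dark at 20 °C by day and 18 °C at night, and a fully expanded leaf was taken at 8 weeks, 4 h after lights on. At that age the shoot apex had begun spike development in WT and was still vegetative in both mutants, so genotype and developmental stage cannot be told apart in a comparison with WT. Which replicates shared 1 of the 2 sequencing lanes was not given in the sources used here.

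Phytochromes are red and far-red light receptors. The active form of phytochrome B moves to the nucleus, where it triggers the degradation or inhibition of bHLH transcription factors called PIFs. When phytochrome B is inactive, as in vegetation shade, PIFs act on genes for gibberellin and auxin, on class II HD-ZIP factors and on small HLH proteins, and stems and leaves elongate. In grasses phytochrome C works largely as a partner of phytochrome B and in temperate cereals both are needed for timely flowering in long days.

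Library totals ran from 37365465 to 58944135 counted reads. Of 8 leaf marker genes (Rubisco small chain, Rubisco activase, chlorophyll a-b binding proteins) 4 stood at 100 TPM or more in every library. The lowest marker averaged 1.25 TPM. Their summed level overlapped between genotypes, from 8859 to 16333 TPM in WT, 10138 to 18338 TPM in phyB-null and 7112 to 27604 TPM in phyC-null. The sources used here do not say how the induced mutations act on transcript level. PHYB and PHYC transcript levels were therefore not used as a check of the labels and are not analysed here. In bulk leaf RNA, a change in cell composition cannot be told from a change within cells.

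Together the 78 genes summed to 1319 to 1439 TPM in the 4 phyB-null libraries, against 146 to 153 TPM in WT and 149 to 276 TPM in phyC-null. Replicate 4 had the highest sum among the phyC-null libraries, and 36 of the 78 genes had their highest phyC-null value in it. The genes varied widely in abundance. Their phyB-null means ran from 2.02 to 192 TPM with a median of 5.46, 27 genes reached 10 TPM and 38 stayed under 5 TPM. In 52 genes both the WT and the phyC-null mean were under 1 TPM. The median phyB-null level was 9.70 times that of WT and 7.53 times that of phyC-null, and 60 of the 78 genes had a phyC-null mean above the WT mean, the median ratio being 1.21 with 0.1 TPM added. These values chose the genes and are a description.

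**Figure D1:**
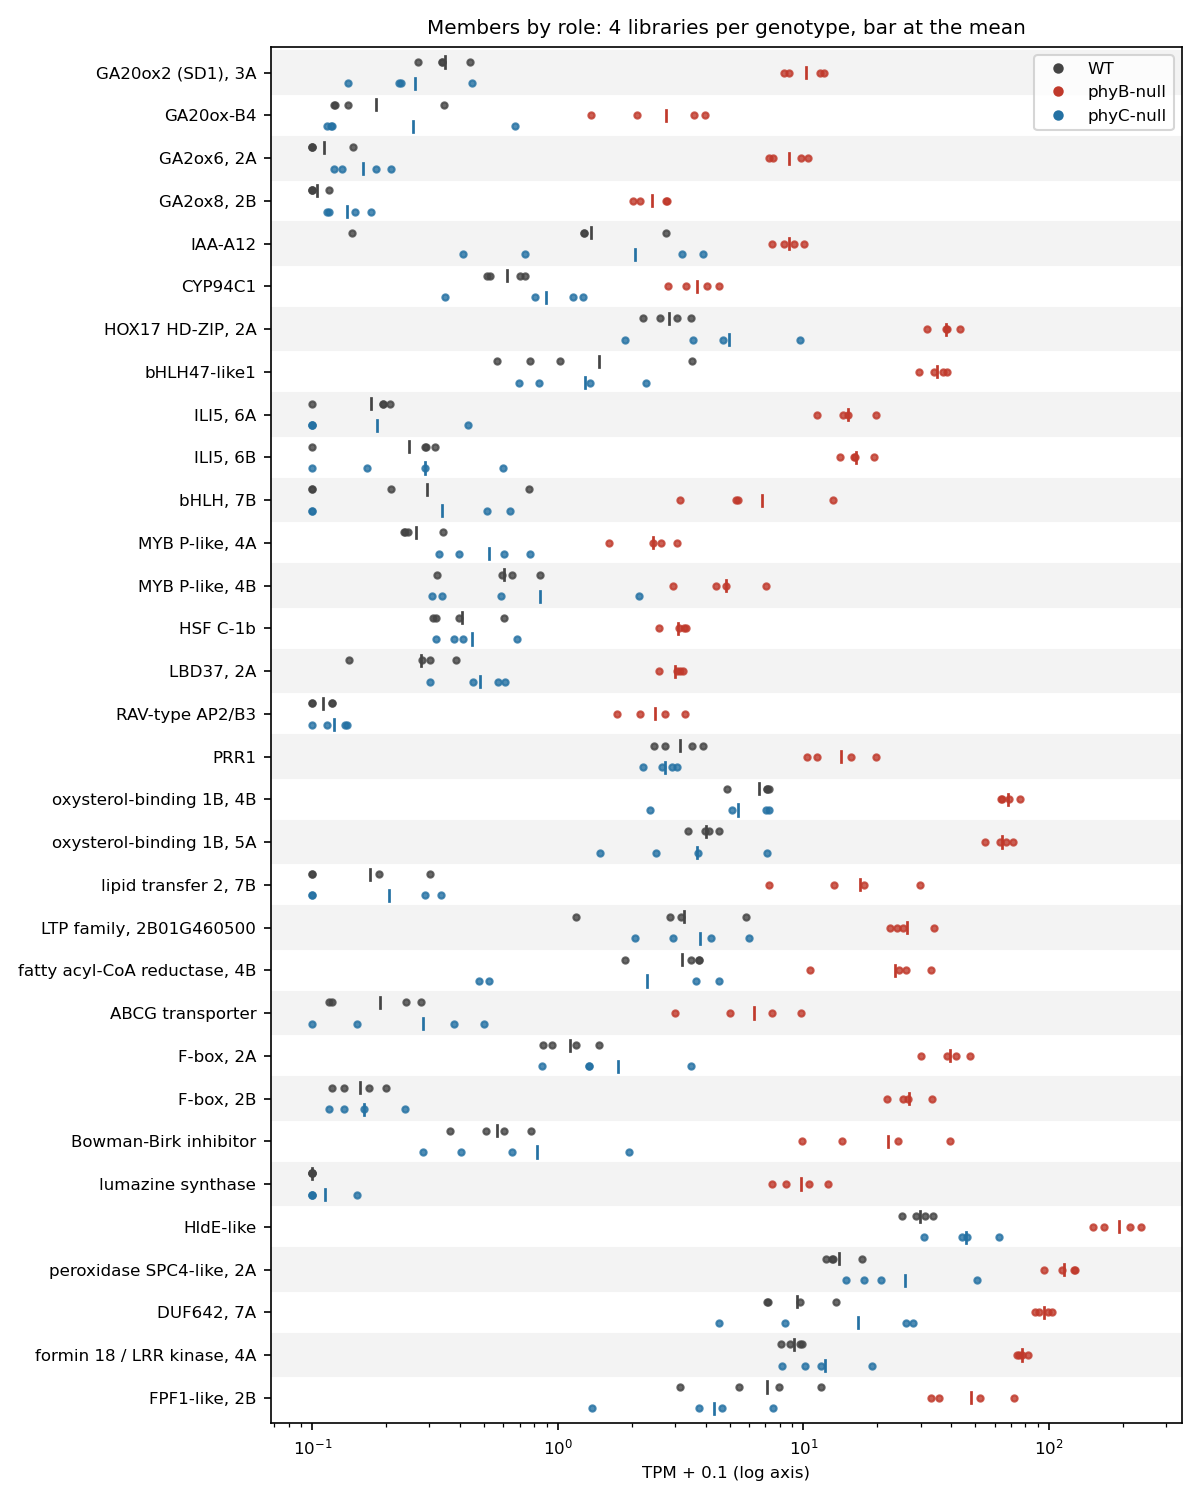
TPM with 0.1 added (log axis) in each library for 32 of the 78 genes ordered by role, with WT in grey, phyB-null in red and phyC-null in blue, 4 points per genotype and a bar at each mean. The red points lie to the right of all others in every row, as the choice of the genes requires, while the grey and blue points range from 0 TPM to over 60 TPM.

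edgeR's quasi-likelihood test, run over all 72120 genes of the count table with a Benjamini-Hochberg adjusted p below 0.01, called 77 of the 78 genes higher and none lower in phyB-null against WT, where 5.97% of all genes were called higher and 5.95% lower. It called 64 higher in phyB-null than in phyC-null, where 1.4% of all genes were called higher (3.41% in either direction, 2.02% lower), and the same 64 were above both genotypes, a state that 1.05% of all genes met. None was called in phyC-null against WT, where 0.796% of all genes were called in either direction, 0.422% higher and 0.374% lower. Since the same libraries chose the genes, nothing further is read from these counts.

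A value that the choice did not use is the level in a phyB-null library left out while the genes were chosen on the other 11. Without replicate 1 the rule kept 75 genes, and all 75 stood above the 8 WT and phyC-null libraries in replicate 1. The left-out library was above all 8 in 76 of 77 genes for replicate 2, in 76 of 76 for replicate 3 and in 79 of 83 for replicate 4. Among the 29436 high-confidence genes with an overall mean of at least 1 TPM, between 10.8% and 22.8% stood above those 8 libraries in any 1 phyB-null library. A left-out level of at least 4 times both means was found in 62, 65, 70 and 62 genes, against 0.411% to 0.540% of the expressed genes, with the WT and phyC-null libraries the same in both steps. Those 8 libraries had already been held low by the rule for the genes kept, and the expressed genes had met no such condition. The comparison therefore shows only that a left-out phyB-null library was mostly like the other phyB-null libraries in these genes. It is no independent support for the set.

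Hormone genes made up 6 of the set, 4 of them acting on gibberellin. Gibberellin 20-oxidases make the precursors of active gibberellin, and gibberellin 2-oxidases inactivate it. TraesCS3A01G406200 on chromosome 3A, annotated as SD1, a gibberellin 20-oxidase known in rice as the semidwarf gene, was at 8.21, 11.6, 8.65 and 12.04 TPM in the phyB-null libraries, between 0.170 and 0.338 TPM in WT and between 0.0402 and 0.349 TPM in phyC-null. Its mean of 10.1 ± 2.0 TPM (SD, n = 4) was 41.2 times that of WT and 62.7 times that of phyC-null. GA20ox-B4 (TraesCS1B01G274200) was weaker, with 1.26, 3.87, 3.47 and 2.005 TPM in phyB-null and means of 0.0825 TPM in WT and 0.156 TPM in phyC-null. No WT or phyC-null library passed 0.570 TPM for either gene.

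The gibberellin 2-oxidase GA2ox6 (TraesCS2A01G379000) had 9.67, 7.16, 7.40 and 10.3 TPM in phyB-null. It had 2 reads in all 4 WT libraries together and 12 in phyC-null, against 1474 in phyB-null. The read ratio of phyB-null to WT per library size was 732, with a 95% counting interval of 202 to 6047. TraesCS2B01G396000, a second gibberellin 2-oxidase on chromosome 2B, had 2.64, 2.05, 1.93 and 2.68 TPM in phyB-null, 1 read in WT and 11 in phyC-null. Genes for making and for inactivating gibberellin were thus both present in the set.

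IAA-A12 (TraesCS5A01G378200), an Aux/IAA protein of the family that represses auxin response, had 7.33, 9.97, 9.02 and 8.24 TPM in phyB-null. WT ranged from 0.0448 to 2.64 TPM and phyC-null from 0.311 to 3.81 TPM, so the spread within each control genotype was wide. TraesCS1B01G286300, annotated as cytochrome P450 94C1, which in Arabidopsis oxidizes the active jasmonate conjugate, averaged 3.57 ± 0.76 TPM in phyB-null, 0.521 TPM in WT and 0.792 TPM in phyC-null.

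Transcription and clock regulators made up 11 of the 78 genes. The class II HD-ZIP gene TraesCS2A01G415900, annotated as HOX17 and related to ATHB2 of Arabidopsis, a classic shade-induced gene, had 31.8, 38.4, 38.1 and 43.3 TPM in phyB-null. Its WT libraries lay between 2.12 and 3.39 TPM and its phyC-null libraries between 1.78 and 9.62 TPM, with the highest in replicate 4. bHLH47-like1 (TraesCS2A01G081300) had 37.04, 29.5, 34.03 and 38.4 TPM in phyB-null against means of 1.37 TPM in WT and 1.19 TPM in phyC-null. Replicate 4 of WT, at 3.43 TPM, stood apart from the other WT libraries at 0.467 to 0.919 TPM, and lay far below phyB-null.

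Genes on 6A and 6B, TraesCS6A01G306200 and TraesCS6B01G334600, are annotated as ILI5. ILI proteins of rice are small HLH proteins that lack a DNA-binding region and pair with other bHLH factors, and relatives of them promote cell elongation. The 6A gene had 11.2, 15.05, 14.4 and 19.7 TPM in phyB-null and the 6B gene 14.03, 16.1, 15.9 and 19.2 TPM. In WT neither passed 0.215 TPM, with 3 reads in all for the 6A gene and 6 for the 6B gene, and in phyC-null they had 4 and 9 reads. The 6A copy gave a read ratio of 211 to WT with a counting interval of 71.8 to 1025, and the 6B copy a mean 110 times that of WT. Both copies were lowest in replicate 1 and highest in replicate 4 of phyB-null.

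Another bHLH gene, TraesCS7B01G090500, was uneven among phyB-null libraries, with 13.1, 5.23, 3.05 and 5.30 TPM, and its coefficient of variation was 66.3%. A RAV-type gene with AP2 and B3 domains (TraesCS1B01G392000) had 1.65, 2.63, 2.06 and 3.20 TPM in phyB-null, 2 reads in WT and 5 in phyC-null. A pair of MYB genes annotated as P-like, a type that in maize controls flavonoid pigments, averaged 2.34 ± 0.61 TPM (TraesCS4A01G118400) and 4.72 ± 1.7 TPM (TraesCS4B01G186000) in phyB-null. The heat stress factor C-1b gene TraesCS3B01G314600 averaged 2.97 ± 0.34 TPM and the LOB domain gene LBD37 (TraesCS2A01G194500) 2.91 ± 0.30 TPM. All 4 were at or under 0.742 TPM on average in the other genotypes.

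TraesCS6B01G253900, annotated as PRR1, the grass relative of the Arabidopsis clock gene TOC1, had 10.2, 19.6, 15.6 and 11.2 TPM in phyB-null. WT had 3.80, 3.42, 2.37 and 2.64 TPM and phyC-null 2.82, 2.56, 2.13 and 2.97 TPM. Unlike most of the regulators it was clearly expressed in all genotypes, with a phyB-null mean 4.62 times that of WT and 5.40 times that of phyC-null.

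Lipid transfer, lipid transport and wax accounted for 10 of the genes. Both genes for oxysterol-binding protein 1B, a family that carries sterols and lipids between membranes, were among the 6 most abundant. TraesCS4B01G375900 had 68.3, 63.6, 64.3 and 76.1 TPM in phyB-null and means of 6.49 TPM in WT and 5.33 TPM in phyC-null. TraesCS5A01G537000 had 66.6, 62.9, 54.9 and 71.5 TPM, and means of 3.91 and 3.60 TPM. Both were steady among the phyB-null libraries, with coefficients of variation of 8.41% and 10.9%.

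The lipid transfer protein 2 gene TraesCS7B01G312800 had 13.2, 29.6, 17.6 and 7.13 TPM in phyB-null, 3 reads in WT and 6 in phyC-null. The fatty acyl-CoA reductase gene TraesCS4B01G006800, of a family that makes the alcohols of cuticular wax, had 26.2, 33.1, 24.4 and 10.5 TPM against a WT mean of 3.12 TPM. In phyC-null it split into 2 libraries at 0.424 and 0.378 TPM and 2 at 4.45 and 3.54 TPM. The set held 4 further genes of the lipid transfer and protease inhibitor family, 2 of them on 2B, which ranged from 3.42 to 26.3 TPM on average, the most abundant being TraesCS2B01G460500. An ABC transporter of the G family (TraesCS2B01G128800) averaged 6.20 ± 2.9 TPM, against 0.0886 TPM in WT and 0.182 TPM in phyC-null.

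With 0.1 TPM added to each mean, the largest ratio to the higher of the other genotypes was 165, in an F-box gene on 2B, TraesCS2B01G354500. F-box proteins select targets for ubiquitination. It had 26.6, 21.9, 25.3 and 33.4 TPM in phyB-null, whereas no other library passed 0.138 TPM, and without the addition the mean was 478 times that of WT and 427 times that of phyC-null. By read ratio to WT, both gibberellin 2-oxidases stood higher, at 732 and 523, on 1 or 2 reads in WT. A second F-box gene on 2A, TraesCS2A01G327500, had 30.05, 38.2, 41.8 and 47.5 TPM, a WT mean of 1.02 TPM and a phyC-null mean of 1.65 TPM. The Bowman-Birk trypsin inhibitor gene TraesCS3B01G038700 had 14.2, 39.4, 24.2 and 9.80 TPM in phyB-null and at most 1.85 TPM elsewhere. Both F-box genes were highest in replicate 4 of phyB-null and the inhibitor was lowest there.

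TraesCS2B01G551700, annotated as lumazine synthase, an enzyme of riboflavin synthesis, had 8.38, 7.33, 10.4 and 12.5 TPM in phyB-null. It had no read in any WT library and 1 in phyC-null, against 517 in phyB-null. It was therefore at least 171-fold higher than in WT, taking 3 reads over the 4 WT libraries as the floor. Another gene of high ratio, TraesCS2A01G010000, annotated as Avr9/Cf-9 rapidly elicited, averaged 5.44 ± 2.4 TPM in phyB-null and 0.0274 TPM in WT.

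The 4 most abundant genes were also well expressed in WT and phyC-null. TraesCS5B01G407800, annotated as an HldE-type bifunctional sugar enzyme, had 151, 236, 213 and 167 TPM in phyB-null, a WT mean of 29.6 TPM and a phyC-null mean of 45.8 TPM. The cationic peroxidase gene TraesCS2A01G571300 averaged 115 ± 15 TPM, the cell wall related DUF642 gene TraesCS7A01G453100 95.03 ± 6.95 TPM and TraesCS4A01G283600, annotated both as formin 18 and as a receptor-like kinase, 77.3 ± 3.6 TPM. The flowering-promoting factor 1-like gene TraesCS2B01G133700, of a family linked in Arabidopsis to flowering and gibberellin response, had 52.3, 35.5, 33.03 and 71.6 TPM in phyB-null. WT ranged from 3.04 to 11.7 TPM and phyC-null from 1.28 to 7.40 TPM. Also among the 15 most abundant were the RETICULATA-related gene TraesCS3A01G347800 at 40.2 TPM, TraesCS6B01G005000 at 38.4 TPM, TraesCS1B01G296400 at 38.2 TPM, TraesCS1B01G164000 at 28.3 TPM and TraesCS5B01G061600, with no description, at 26.9 TPM.

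Enzymes and transporters of metabolism made up 15 of the 78 genes. Besides the HldE-type, peroxidase and lumazine synthase genes they included beta-amylase, sucrose synthase 2, phosphoenolpyruvate carboxykinase, a sulfate transporter and UDP-glycosyltransferases, and the lowest phyB-null mean of the 15 was 2.37 TPM. Signalling, stress and defence held 9 genes, with TraesCS4A01G283600 and TraesCS2A01G010000 above and, among others, CBL-interacting kinase 5 and cold regulated protein 27, whose Arabidopsis relative acts on the clock. Of the 78 genes, 13 had no description in the sources used and are counted without a role, with means from 2.02 to 26.9 TPM.

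At the edge of the rule, the genes with the smallest ratio were TraesCS4B01G210100, CBL-interacting kinase 5 (TraesCS3B01G169300) and sucrose synthase 2 (TraesCS2B01G194200), at 3.69, 3.73 and 3.77 with 0.1 TPM added. Without the addition, as the rule applies it, they were 4.087, 4.098 and 4.086 times the larger of the other means. Just outside, with every other condition met, were TraesCS2A01G100900 at 3.88 times, the CONSTANS-like 9 gene TraesCS7A01G218600 at 3.81 times and the HY5-like gene TraesCS6A01G175800 at 3.71 times. HY5 is a central activator of light responses in Arabidopsis, and this gene stood at 170 TPM in phyB-null, 28.5 TPM in WT and 46.0 TPM in phyC-null.

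The phyB-null libraries differed among themselves in a way that divided the genes. In 23 of the 78 genes (29.5%) replicates 2 and 3 were both above replicates 1 and 4, and in 22 genes (28.2%) replicates 1 and 4 were both above replicates 2 and 3. Among the 29436 expressed high-confidence genes, these orders were found in 11.7% and 50.7%. On library-scaled counts with TMM factors the members' counts were 32 (41.03%) and 12 (15.4%), against 27.8% and 29.01% of the expressed genes. On both scales more of the 78 genes than of all expressed genes were high in replicates 2 and 3. PRR1, the trypsin inhibitor, the lipid transfer protein 2 gene, the ABC transporter, GA20ox-B4 and IAA-A12 were high in replicates 2 and 3 on the TPM scale. Both oxysterol-binding genes, both gibberellin 2-oxidases, bHLH47-like1, the 2B F-box gene and the flowering-promoting factor gene were high in replicates 1 and 4 on that scale, and of these only the gibberellin 2-oxidases and the flowering-promoting factor gene were so on the count scale too. The median coefficient of variation in phyB-null was 23.04% over the 78 genes and 16.0% over the expressed genes. In WT these values were 40.1% and 13.7% and in phyC-null 58.6% and 24.7%. The rule held the 78 genes low in WT and phyC-null, where few reads widen the spread. These values therefore cannot show whether the spread in phyB-null is particular to it. The expressed genes were not matched to the 78 for level. Whether lane or sampling moved with the order of the phyB-null libraries was not tested.

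**Figure D2:**
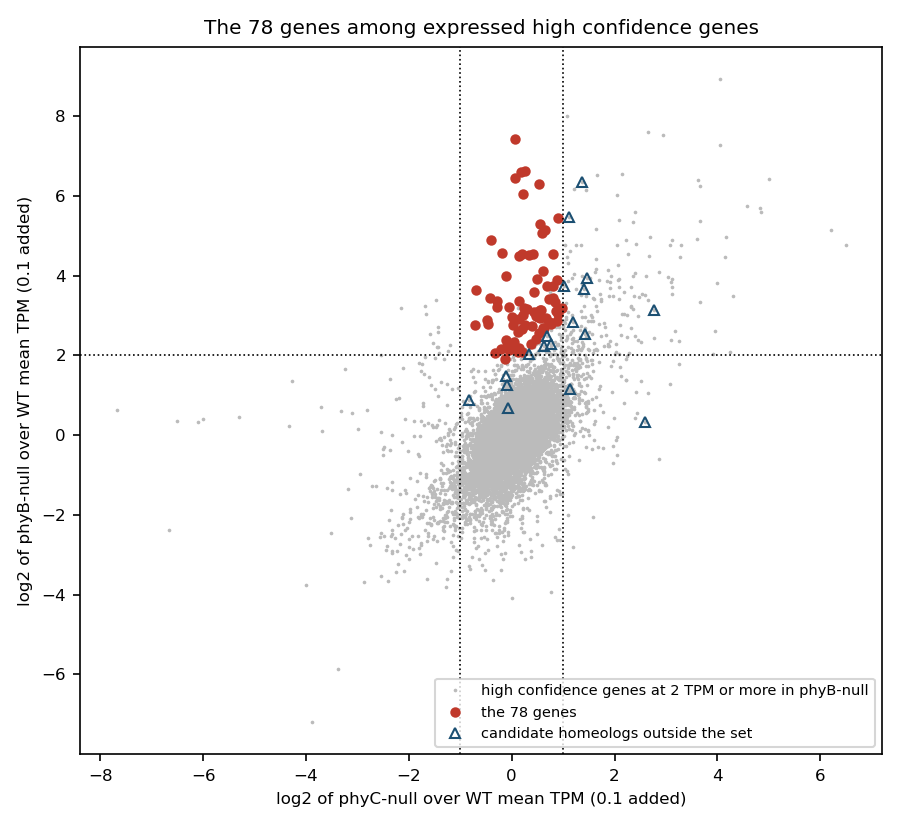
Grey points are high-confidence genes with a phyB-null mean of at least 2 TPM, and every gene is placed by the log2 ratio of phyC-null to WT (horizontal) and of phyB-null to WT (vertical), with 0.1 TPM added to each mean. Red points are the 78 genes, dotted lines mark ratios of 2-fold and 4-fold, and open triangles are the 18 candidate homeologs outside the set, 10 of which lie beyond a 2-fold ratio of phyC-null to WT.

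Durum wheat carries an A and a B copy of most genes. For 21 pairs the supplementary annotation allowed a candidate homeolog to be named, by a description or gene name shared on the A and B chromosome of 1 group. In 3 pairs both copies were among the 78 genes, namely the ILI5 genes, the gibberellin 2-oxidases and the MYB P-like genes. Genes that share a description across different groups were not paired, among them the oxysterol-binding genes on 5A and 4B. The F-box genes on 2A and 2B, with unlike descriptions, were not paired either, so the count of 3 may be too low. Of the 18 partners outside the set, edgeR called 15 higher in phyB-null than in WT, 8 higher in phyB-null than in phyC-null and 1 higher in phyC-null than in WT. The annotation came in part from the study's tables of genes that differed in these libraries, so these counts are no independent evidence. A total of 10 partners missed the condition that WT and phyC-null lie within 2-fold of each other, 5 of them that condition alone.

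Those 5 met every other part of the rule in these same libraries, so a rise in phyB-null follows from how they were picked. The values below are a description and no independent evidence. All were called higher in phyB-null than in WT. The 3B gibberellin 20-oxidase GA20ox2 (TraesCS3B01G439900) had 25.8, 35.2, 26.2 and 31.6 TPM in phyB-null, 0.203 to 0.417 TPM in WT and 0.414, 0.392, 0.450 and 2.11 TPM in phyC-null. It rose 6.90 ± 0.27 (SE) in log2 over WT (edgeR adjusted p = 1.6e-08) and 5.22 ± 0.49 over phyC-null (edgeR adjusted p = 1.4e-04). Its phyC-null difference from WT of 1.68 ± 0.56 did not pass (edgeR adjusted p = 0.16), and replicate 4 lay above the other phyC-null libraries. ATHB2-B (TraesCS2B01G434900), partner of the HOX17 gene, averaged 16.5 ± 3.2 TPM in phyB-null, 1.13 TPM in WT and 2.41 TPM in phyC-null, a log2 difference of 3.98 ± 0.24 over WT (edgeR adjusted p = 5.7e-07).

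The 4A fatty acyl-CoA reductase gene (TraesCS4A01G304400) averaged 17.4 ± 7.9 TPM in phyB-null, 0.292 TPM in WT and 0.755 TPM in phyC-null. Its log2 difference was 6.03 ± 0.44 over WT (edgeR adjusted p = 2.3e-06) and 4.42 ± 0.84 over phyC-null (edgeR adjusted p = 0.0090), the latter above 0.01 when any 1 library other than phyC-null replicate 3 was left out. The 2B LBD37 gene (TraesCS2B01G212400) rose 5.71 ± 0.56 over WT (edgeR adjusted p = 2.1e-05) and 2.90 ± 0.30 over phyC-null (edgeR adjusted p = 2.2e-04). The partner of TraesCS6B01G005000 on 6A (TraesCS6A01G001200) rose 3.97 ± 0.44 over WT (edgeR adjusted p = 5.3e-05), while its difference of 2.25 ± 0.54 from phyC-null did not pass (edgeR adjusted p = 0.026).

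Other partners departed from their member copies. The 2B peroxidase gene TraesCS2B01G615800 was higher in both mutants, by 3.52 ± 0.25 in phyB-null (edgeR adjusted p = 1.9e-06) and 3.07 ± 0.41 in phyC-null (edgeR adjusted p = 0.0023), and the mutants differed by 0.46 ± 0.37 (edgeR adjusted p = 0.49). The call in phyC-null was lost when WT replicate 1, 2 or 3 was left out, with an adjusted p from 0.0105 to 0.0133. GA20ox-A4 (TraesCS1A01G263600) had 0.863 to 4.36 TPM in phyB-null, 0.831 to 3.96 TPM in WT and 6.47, 3.52, 2.72 and 38.0 TPM in phyC-null. It differed by 0.45 ± 0.52 between phyB-null and WT (edgeR adjusted p = 0.59), whereas its B copy was among the 78 genes. IAA-B12 (TraesCS5B01G381800) rose 2.22 ± 0.41 over WT (edgeR adjusted p = 0.0022, and 0.0107 without WT replicate 1), while its difference of 1.67 ± 0.69 from phyC-null did not pass (edgeR adjusted p = 0.17).

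**Figure D3:**
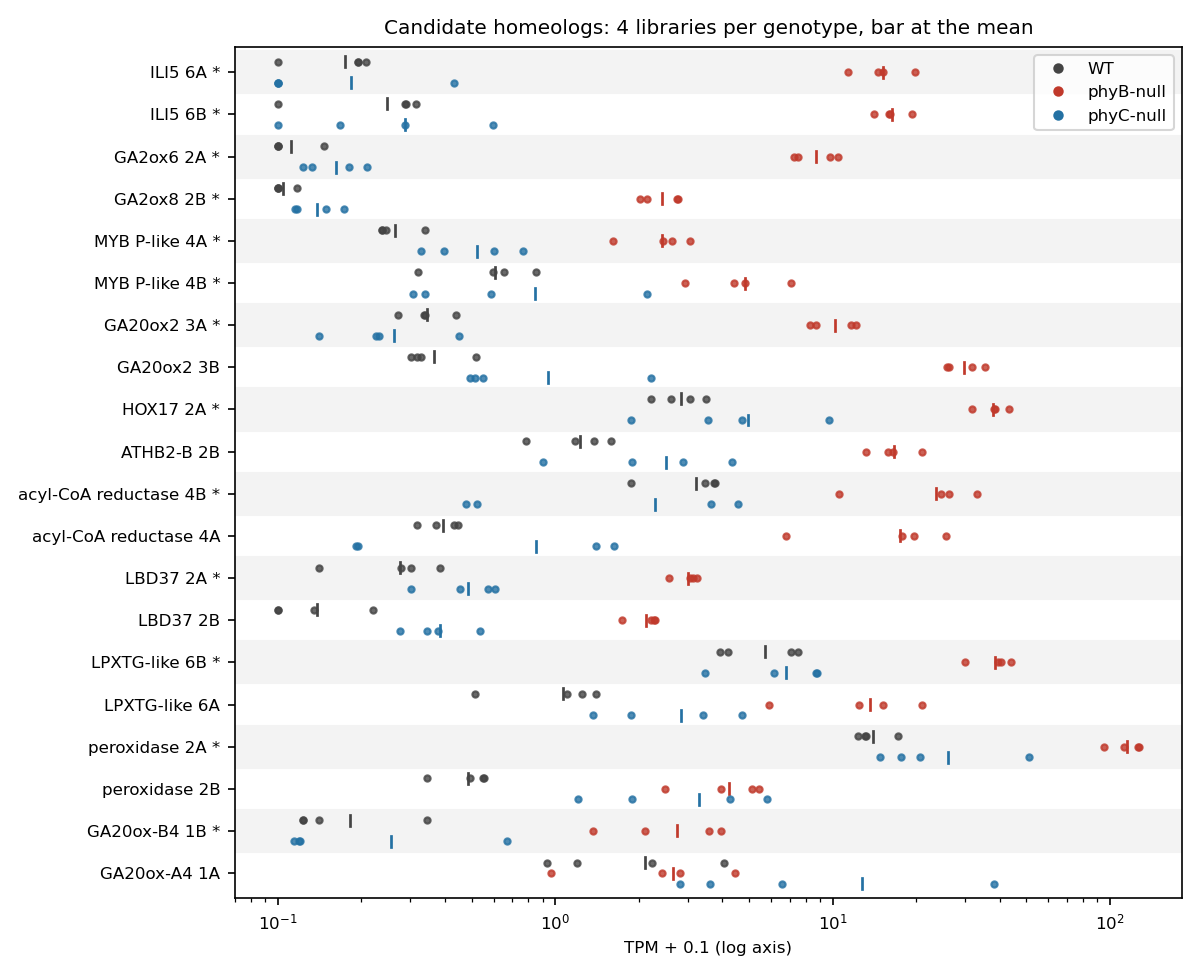
TPM with 0.1 added (log axis) in each library for 10 candidate homeolog pairs, with an asterisk at the members, 4 points per genotype and a bar at each mean. ILI5, the gibberellin 2-oxidases and MYB P-like show the same separation in both copies, while the 2B peroxidase and GA20ox-A4 have blue points level with or above the red ones.

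The identifiers give the chromosome of each gene in the IWGSC RefSeq v1.0 order. The genes lay on every A and B chromosome, and 1 was not placed on a chromosome. Group 2 chromosomes held 21 of them (12 on 2A, 9 on 2B), which is 26.9%, where they hold 16.2% of the high-confidence models and 16.2% of the expressed ones. The B genome held 44 and the A genome 33, or 56.4% and 42.3%, against 49.0% and 50.1% of the expressed genes. No 2 of the 78 genes were next to each other in the identifier order.

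Genes next to the 78 were not chosen by their own values. Of 156 such neighbours 119 were in the count table, and edgeR called 12 of them (10.1%) higher and 7 lower in phyB-null against WT, where 7.48% and 7.63% of the high-confidence genes were called. The share was near that of all high-confidence genes, and a few neighbours had large differences. Reads counted without a stated strand setting cannot separate overlapping neighbours, and gene ends were not available here.

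The F-box genes on 2A and 2B each had a ribonuclease H2 subunit B gene beside them. On 2A it was TraesCS2A01G327400, with 154, 155, 177 and 228 TPM in phyB-null, 0.0893 to 0.545 TPM in WT and 1.34, 1.95, 0.659 and 20.1 TPM in phyC-null. It rose 9.49 ± 0.34 in log2 over WT (edgeR adjusted p = 1.2e-08) and 5.05 ± 0.90 over phyC-null (edgeR adjusted p = 0.0063). Leaving out a library moved the latter p above 0.01 for each of the 4 phyB-null replicates and for phyC-null replicates 1 and 2. On 2B, TraesCS2B01G354600 had 40.8, 44.6, 51.04 and 61.5 TPM in phyB-null, at most 0.172 TPM in WT and at most 0.818 TPM in phyC-null. It rose 9.10 ± 0.28 over WT (edgeR adjusted p = 6.4e-09) and 7.41 ± 0.54 over phyC-null (edgeR adjusted p = 2.9e-05). Ribonuclease H2 removes RNA from RNA-DNA hybrids, and on both chromosomes the adjacent pair of genes was high in phyB-null.

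**Figure D4:**
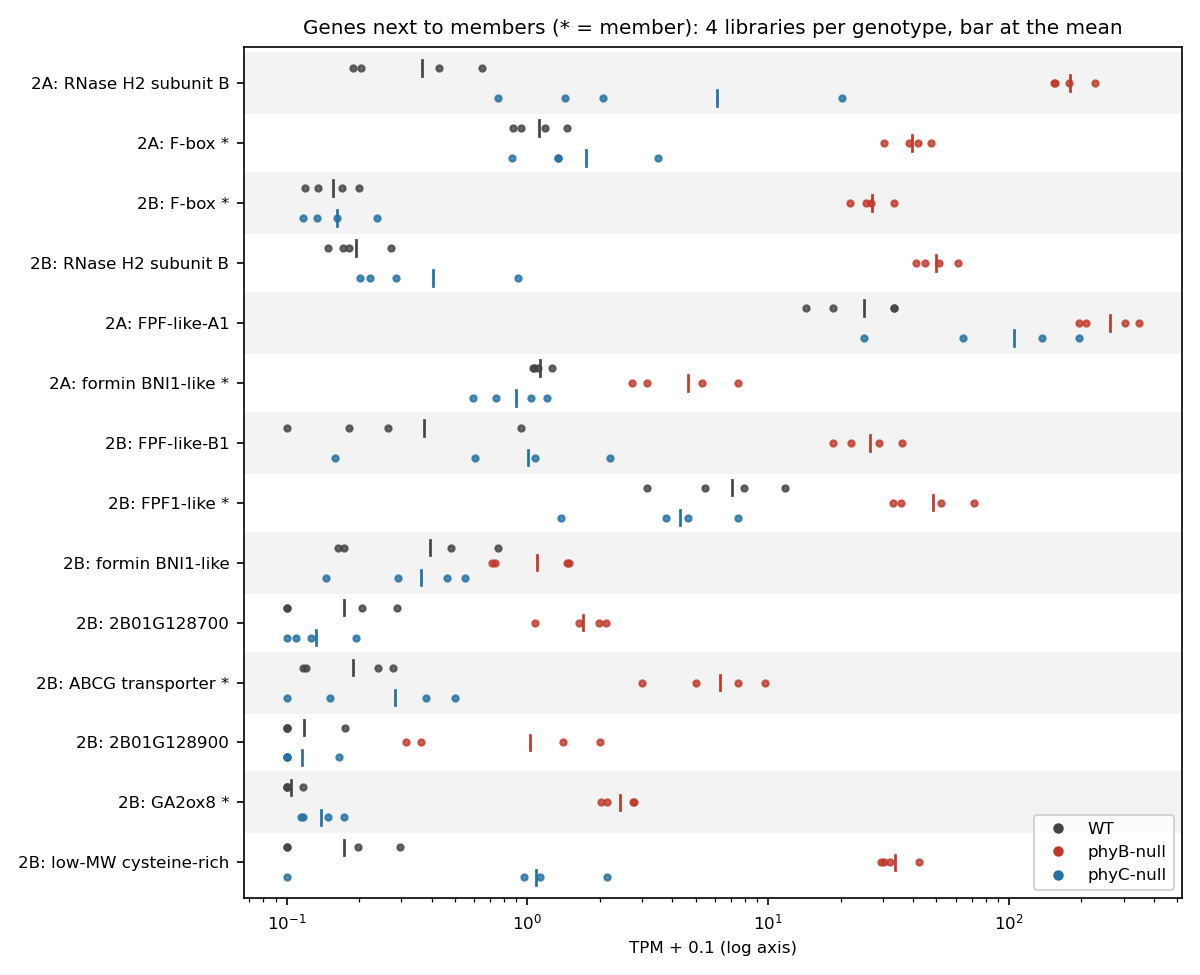
TPM with 0.1 added (log axis) in each library for 14 genes of 6 neighbourhoods, with an asterisk at the members, 4 points per genotype and a bar at each mean. In the F-box and ribonuclease H2 neighbourhoods of 2A and 2B all red points lie above 20 TPM, and the blue point at 20.1 TPM for the 2A ribonuclease gene is phyC-null replicate 4.

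Flowering-promoting factor genes formed a second neighbourhood. FPF-like-B1 (TraesCS2B01G133600), beside the member TraesCS2B01G133700, had 28.7, 22, 18.6 and 35.9 TPM in phyB-null and rose 6.68 ± 0.48 over WT (edgeR adjusted p = 2.0e-06) and 4.97 ± 0.52 over phyC-null (edgeR adjusted p = 2.7e-04). On 2A, FPF-like-A1 (TraesCS2A01G114600), beside the member formin gene TraesCS2A01G114700, rose 3.51 ± 0.25 over WT (edgeR adjusted p = 2.0e-06). In phyC-null FPF-like-A1 stood at 195, 64.5, 24.9 and 137 TPM, and only replicate 3 lay within the WT range of 14.3 to 33.3 TPM. Its phyC-null difference from WT of 2.08 ± 0.44 did not pass (edgeR adjusted p = 0.032). The difference of 1.45 ± 0.41 between phyB-null and phyC-null did not pass either (edgeR adjusted p = 0.052). The 2B formin gene TraesCS2B01G133800, on the other side of the member, stood at 0.998 TPM in phyB-null and 0.295 TPM in WT, a log2 difference of 1.85 ± 0.64 that did not pass (edgeR adjusted p = 0.057). In all of these but the last, replicates 1 and 4 were the 2 highest phyB-null libraries.

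Both neighbours of the ABC transporter gene were called too. TraesCS2B01G128700 averaged 1.60 ± 0.47 TPM in phyB-null and rose 4.47 ± 0.64 over WT (edgeR adjusted p = 3.9e-04) and 5.64 ± 0.59 over phyC-null (edgeR adjusted p = 2.7e-04). TraesCS2B01G128900 was at 0.263, 1.91, 1.31 and 0.212 TPM in phyB-null and rose 5.16 ± 1.17 over WT (edgeR adjusted p = 0.0073). The latter p was above 0.01 without any 1 WT replicate or without phyB-null replicate 2 or 3. Next to the 2B gibberellin 2-oxidase, the defensin-type gene TraesCS2B01G396100 had 42.1, 30.3, 29.3 and 32.1 TPM in phyB-null against at most 0.196 TPM in WT and 2.04 TPM in phyC-null, a rise of 8.62 ± 0.36 over WT (edgeR adjusted p = 3.1e-08). Opposite in direction, the cyclic dof factor gene CDF1c-B (TraesCS2B01G118000), beside the thioredoxin-like gene TraesCS2B01G118100, fell by 1.80 on the log2 scale (SE 0.17, edgeR adjusted p = 1.7e-05).

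The 7 lists of light, hormone, cold and flowering genes, drawn from the study's supplementary annotation, gave the setting. They held 135 genes, 6 of them members. Of the 129 others, edgeR called 43 higher and 56 lower in phyB-null against WT (over all genes tested the shares called were 5.97% and 5.95%), 12 higher and 14 lower in phyC-null than in WT, and between the mutants 24 with more and 24 with less transcript in phyB-null. Many were picked by the study on these libraries, so the counts are not independent evidence. The median log2 difference between phyB-null and WT was -0.24 over the listed genes and 0.00 over all genes tested.

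In gibberellin metabolism 4 of 13 genes were members. Of the other 9, edgeR called 5 higher and 2 lower in phyB-null against WT. GA2ox-A11 (TraesCS4A01G033200) and GA2ox-B11 (TraesCS4B01G272100), at 1.32 and 1.40 TPM in phyB-null, were under the 2 TPM limit of the rule. They rose over phyC-null by 6.97 ± 0.55 (edgeR adjusted p = 4.5e-05) and 6.80 ± 0.64 (edgeR adjusted p = 1.4e-04), and GA2ox-A11 was listed at 0 in all 4 WT libraries. Another pair of gibberellin 2-oxidase genes was more abundant in phyB-null and less restricted to it. TraesCS1A01G334400 averaged 6.39 TPM in phyB-null, 0.306 TPM in WT and 2.38 TPM in phyC-null, and rose in phyC-null over WT by 3.14 ± 0.40 (edgeR adjusted p = 0.00165, and 0.0103 without WT replicate 1). TraesCS1B01G347600 averaged 8.87, 0.203 and 1.31 TPM in the same order, and its phyC-null difference from WT of 2.82 ± 0.49 did not pass (edgeR adjusted p = 0.0115). A further one, TraesCS3A01G133400, averaged 0.0462 TPM in phyB-null, 0.540 TPM in WT and 0.339 TPM in phyC-null.

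Among the light and growth regulators 10 of 16 were higher and 5 lower in phyB-null against WT. Against phyC-null 7 were higher and 2 lower. The genes named here from this list are all among the rising ones. In contrast, the study reported a bHLH gene similar to the PIF subfamily as lower in both mutants than in WT. PIF3 (TraesCS1B01G100400), a gene of the phytochrome-interacting factors described above, was at 56.01 ± 9.2 TPM in phyB-null, 0.204 TPM in WT and 2.24 TPM in phyC-null. It rose 8.17 ± 0.28 over WT (edgeR adjusted p = 1.2e-08), and by 3.43 ± 0.48 in phyC-null over WT (edgeR adjusted p = 0.0030), a call lost without WT replicate 1, 2 or 3 (adjusted p up to 0.018). BIM-A2 (TraesCS5A01G251400) and BZR1-like-A (TraesCS3A01G139000), of families that act in brassinosteroid response, rose over phyC-null by 1.84 ± 0.25 (edgeR adjusted p = 0.00145) and 1.33 ± 0.22 (edgeR adjusted p = 0.0046). The latter call was lost without phyB-null replicate 2, 3 or 4 or phyC-null replicate 1 or 2, with an adjusted p up to 0.019.

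In the auxin list 10 of 29 genes outside the set were higher and 9 lower in phyB-null against WT. Against phyC-null 4 were higher and 7 lower, and the genes named here are among the higher ones. TAR-A2 (TraesCS3A01G093000) and TAR-B2 (TraesCS3B01G108200), aminotransferases of auxin synthesis, were called higher in phyB-null than in both other genotypes. They rose over WT by 1.63 ± 0.19 (edgeR adjusted p = 8.5e-05) and 1.26 ± 0.13 (edgeR adjusted p = 4.3e-05) and over phyC-null by 1.62 ± 0.19 (edgeR adjusted p = 5.1e-04) and 1.41 ± 0.17 (edgeR adjusted p = 7.9e-04). Their phyC-null values differed from WT by 0.02 ± 0.18 and -0.13 ± 0.15.

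The lists of cytokinin and abscisic acid genes and of flowering and clock genes, as drawn, held no member, and the PRR1 and flowering-promoting factor genes of the set were not on the latter. The UDP-glycosyltransferase 76C2-like member (TraesCS3A01G466200) was on neither list and was counted under metabolism. In the cytokinin and abscisic acid list, none of 12 genes was called higher and 10 lower in phyB-null against WT, and 8 lower than in phyC-null. The abscisic acid receptor gene PYL4-like2 (TraesCS2B01G105300) fell by 1.995 on the log2 scale from WT (SE 0.13, edgeR adjusted p = 1.0e-06) and was at 31.1 ± 5.2 TPM in phyC-null against 26.9 ± 3.0 TPM in WT. Of the 42 flowering and clock genes, 9 were called higher and 24 lower in phyB-null, and 3 higher and 12 lower in phyC-null, each against WT. The clock gene CCA1 (TraesCS7B01G188000), whose Arabidopsis relative represses TOC1, was at 4.02 ± 1.2 TPM in phyB-null, 34.03 ± 2.9 TPM in WT and 19.9 ± 2.4 TPM in phyC-null. It fell by 2.99 on the log2 scale from WT (SE 0.16, edgeR adjusted p = 1.8e-07) and by 2.34 from phyC-null (SE 0.22, edgeR adjusted p = 1.4e-04). Whether the levels of CCA1 and PRR1 are linked was not tested. In the cold list 4 of 11 genes were called higher and 1 lower in phyB-null, and 4 higher in phyC-null, and none was a member. Members with a cold description were not on that list as drawn. They were cold regulated protein 27 (TraesCS4A01G004800), at 3.15 TPM in phyB-null, and a cold shock 1 precursor (TraesCS4A01G290900), at 2.06 TPM.

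**Figure D5:**
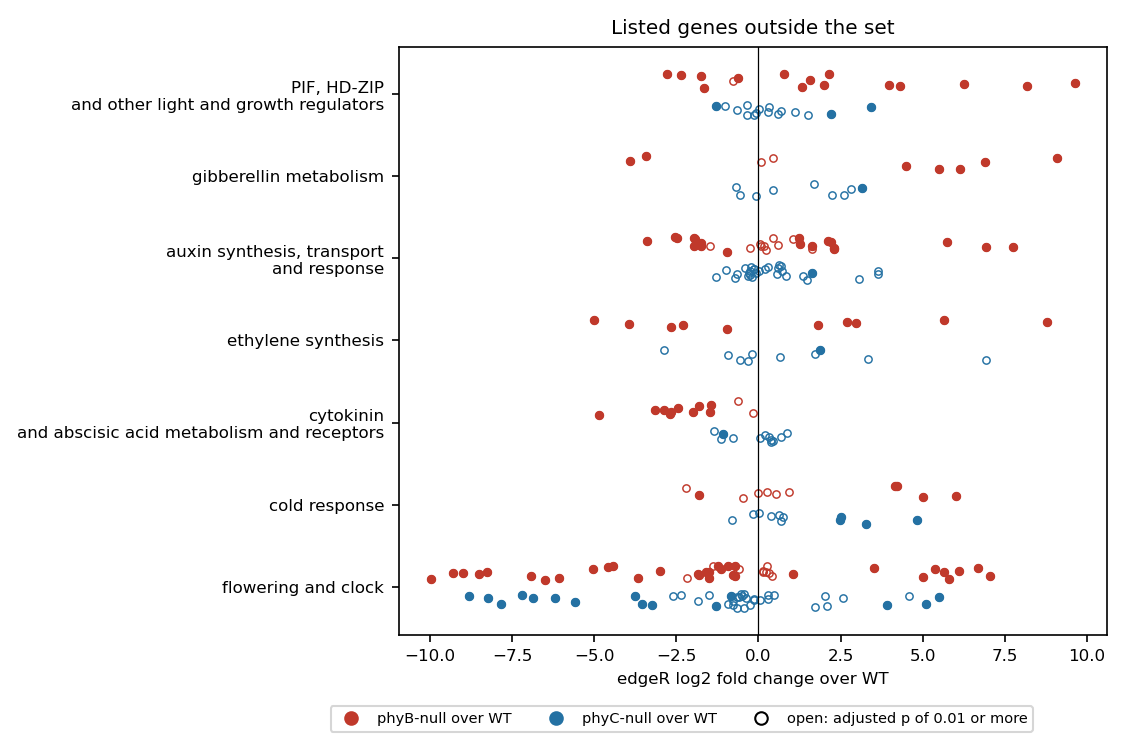
edgeR log2 fold change over WT of the 129 listed genes outside the set, phyB-null in red above and phyC-null in blue below in each list, filled where the adjusted p was below 0.01. Red points spread to both sides of 0 in most lists, and all filled red points of the cytokinin and abscisic acid list lie below 0.

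The transcription factor families of the members held genes called in both directions. Of 204 bHLH genes outside the set, 25 were called higher and 28 lower in phyB-null against WT, with a median log2 difference of -0.21. Of 131 MYB genes 2 were higher and 9 lower, and of 30 HSF genes 4 were higher and 4 lower. The HD-ZIP list, on which the HOX17 member was not counted, had 5 of 47 higher and 6 lower. Over all high-confidence genes 7.48% were called higher and 7.63% lower. Among family lists that held no member, WRKY had 3 of 119 higher and 36 lower and NAC 3 of 147 higher and 32 lower, whereas MADS2 had 11 of 63 higher and 10 lower, ERF 10 of 105 and 9, G2-like 8 of 64 and 11, and CO-like 5 of 20 and 3. The bZIP list had 12 of 124 higher and 20 lower, MYB-related 7 of 78 and 17, and GRAS 1 of 55 and 10. C2H2 had 2 of 95 higher and 5 lower, and Dof 4 of 38 and 4.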

How the data were processed

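Per the study's methods, the authors aligned single-end leaf RNA-seq reads with GSNAP to the IWGSC RefSeq v1.0 genome and counted uniquely mapped reads per gene with HTSeq; tool versions and the strand setting were not given in the sources used here. The deposited tables hold raw counts, from which the authors had dropped genes with low counts in every library, and TPM values for 190459 gene models. Genes were chosen on the deposited TPM values by the rule given above. Their edgeR calls are counted beside the shares over all genes, and nothing is read from these counts because the same libraries chose the genes. All fits used the deposited counts: edgeR 4.0.16 (R 4.3.3) with TMM factors, a quasi-likelihood test of the 8 libraries of each comparison over 72120 genes and Benjamini-Hochberg adjustment, called below 0.01. Fold changes are mutant over WT, or phyB-null over phyC-null. DESeq2 1.42.0 and limma 3.58.1 on log2(TPM + 1) and log2(TPM + 0.1) were alternatives. The edgeR script was tested on simulated data for phyB-null against WT, where 190 of 200 changed genes were recovered among 72120, with 1 false call. Counting intervals are 95% exact intervals and cover counting error only.

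Members and lists were chosen with earlier results of these data known. Described by rule were members with a gene name or transcription factor family, the 15 most abundant, the 10 with the largest ratio, those at the threshold and copies sharing a description. The rule also took in named genes of the 7 lists, but only some are described, picked after their values were seen. Other members, the neighbours, most partners and the unnamed listed genes were picked for description after their values were seen. Names and descriptions came from the study's supplementary tables. None of the 78 identifiers matched the RefSeq gene table (assembly Svevo.v1), so gene coordinates and sequences were not used. Per the study's methods, libraries came from individual plants.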

Additional observations from a re-analysis of the deposited data

Results flagged for a closer look

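Of 127 groups of 4 libraries with values for the 78 genes, 6 held a library far from the other 3, where chance gives about 1 in 20 groups. In WT, bHLH47-like1 (TraesCS2A01G081300) was at 3.428 TPM in replicate 4 and between 0.467 and 0.919 TPM in the others. The fatty acyl-CoA reductase gene TraesCS4B01G006800 was at 1.779 TPM in WT replicate 2 and between 3.38 and 3.66 TPM in the others. The oxysterol-binding gene TraesCS4B01G375900 was at 4.801 TPM in WT replicate 4, against 7.003 to 7.140 TPM. In phyB-null, the glycerophosphodiester phosphodiesterase gene TraesCS3B01G370300 was at 6.046 TPM in replicate 2, against 1.77 to 1.98 TPM, and TraesCS4A01G382000 was at 2.255 TPM in replicate 2, against 2.69 to 2.75 TPM. In phyC-null, the peroxidase gene TraesCS2A01G571300 was at 50.83 TPM in replicate 4, against 14.8 to 20.5 TPM.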

How the results depend on the processing

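The rule kept 122 genes at a fold of 3, 34 at a fold of 8 and 40 at a minimum of 5 TPM, against 78. It kept 73 on library-scaled counts (56 shared with the 78), 108 at a minimum of 1 TPM, and 72 when 0.1 TPM was also added in the fold, an alternative chosen after seeing the data. Leaving out 1 library gave 70 to 110 genes, with 110 without phyC-null replicate 4 (75 of the 78 kept) and 96 without phyC-null replicate 3 (68 kept). Listed genes called in phyC-null against WT numbered 26, and 46 with DESeq2, 13 and 17 with limma at 1 and 0.1 TPM added, 42 at an adjusted p below 0.05 and 18 to 37 with 1 library left out. Between phyB-null and phyC-null they numbered 48, and 29 and 28 with limma, and 29 to 50 with 1 library left out, the lowest without phyB-null replicate 3. Between phyB-null and WT the 99 ranged from 86 to 106 over all alternatives, and from 91 to 100 with 1 library left out. The 12 neighbours called higher became 21 with DESeq2, 24 at an adjusted p below 0.05 and 9 to 15 with 1 library left out. The cause of these shifts was not tested. Over 53 single-gene comparisons, 791 alternative values kept the call, 55 lost it and none changed direction.

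Replicate numbers gave no clear pairing of the libraries: the correlation of deviations between same-numbered libraries ran from -0.37 to 0.0027 for phyB-null and WT, from -0.058 to 0.23 for phyC-null and WT and from -0.50 to 0.58 for phyB-null and phyC-null. The same-numbered library was the best match for phyB-null replicates 1 and 3 in phyC-null and for phyC-null replicate 4 in WT. Whether these libraries shared a lane or handling was not tested. With the replicate block the listed genes called were 90 in phyB-null against WT, 30 in phyC-null against WT and 43 between the mutants, and 10 neighbours were called. Genes with few reads in WT and phyC-null limit the precision of the largest ratios.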
